A study of Mus musculus with 4 samples.

Results

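The interferon regulatory factors are a family of transcription factors, and 8 of their genes, Irf1, Irf2, Irf3, Irf4, Irf5, Irf7, Irf8 and Irf9, were followed over 4 microarrays of mouse CD4+ helper T cells. They were chosen by name: every probe set (a group of short probes for 1 transcript region) that the platform annotation ties to 1 of these symbols alone was taken. That gave 14 of the 45101 probe sets, or 8 of the 18193 genes represented. Irf3 had 4 probe sets, Irf4, Irf5 and Irf8 had 2 each, and Irf1, Irf2, Irf7 and Irf9 had 1 each.

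Naive CD4+ T cells sorted from spleen and lymph nodes were activated through CD3 and CD28 for 3 days and expanded in interleukin-2 for 4 days, then restimulated for 2 h through the same receptors. Th1 cultures held interleukin-12 and an antibody to interleukin-4, and Th2 cultures held interleukin-4 and an antibody to interferon gamma; the polarizing cytokine was also present during restimulation. The 4 groups were Th1 cells of C57BL/6J (wild type) mice, Th1 cells labelled C57BL6-STAT4<tm1> (STAT4KO), Th2 cells of C57BL/6J (wild type) mice and Th2 cells labelled B6.129S2©-STAT6<tm1Gru>/J (STAT6KO). STAT4 carries interleukin-12 signals and STAT6 carries interleukin-4 signals, and the study asked what each contributes to helper T cell identity. Each group was 1 array, so no difference has a replicate check and no test was possible. The age of the mice and the number pooled are not given in the sources used here.

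All members share a DNA-binding domain that recognises GAAA-type elements, and they differ in what switches them on. Irf3 and Irf7 are activated by kinases downstream of nucleic acid sensors and drive type I interferon genes, and Irf9 is the DNA-binding subunit of the complex ISGF3, which drives interferon-stimulated genes. Irf1 is itself induced by interferons and activates antigen presentation genes, while Irf2 binds the same elements and often opposes it. Irf4 is induced by the T cell receptor and, with BATF and AP-1 factors, is needed for Th2 and other effector programs. Irf8 is best known from myeloid, dendritic and B cells but is also made by activated T cells, and Irf5 acts mainly in myeloid and B cells.

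The promoters of the 3 genes on which the differences below turn are shown to let their elements be compared. Each is the 250 bases before the first annotated start, from RefSeq's table for GRCm38.p6, written 5′ to 3′ on the gene's own strand. Irf1 lies on the plus strand (chr11:53769764-53770013), Irf7 on the minus strand (chr7:141266425-141266674) and Irf8 on the plus strand (chr8:120736108-120736357). Capitals mark matches to the GAS element TTCNNNGAA, found in promoters of genes that interferon gamma induces.
Irf1 promoter: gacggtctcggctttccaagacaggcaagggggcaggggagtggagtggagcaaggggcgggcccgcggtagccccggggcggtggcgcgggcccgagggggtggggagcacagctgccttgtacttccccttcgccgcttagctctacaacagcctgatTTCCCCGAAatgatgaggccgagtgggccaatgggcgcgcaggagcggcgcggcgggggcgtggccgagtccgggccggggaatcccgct
Irf7 promoter: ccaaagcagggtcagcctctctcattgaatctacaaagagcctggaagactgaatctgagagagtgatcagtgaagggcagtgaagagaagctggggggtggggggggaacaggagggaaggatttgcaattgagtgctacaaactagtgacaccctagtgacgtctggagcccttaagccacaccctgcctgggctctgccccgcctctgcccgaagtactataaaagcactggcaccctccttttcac
Irf8 promoter: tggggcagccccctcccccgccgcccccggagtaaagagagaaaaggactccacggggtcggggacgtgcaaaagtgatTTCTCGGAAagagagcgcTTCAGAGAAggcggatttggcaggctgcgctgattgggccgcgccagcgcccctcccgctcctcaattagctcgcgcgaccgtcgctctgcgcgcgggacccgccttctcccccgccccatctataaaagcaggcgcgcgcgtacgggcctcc
The Irf1 window held 1 GAS match, TTCCCCGAA, at −90 to −82 from the start. The Irf8 window held 2, TTCTCGGAA at −171 to −163 and TTCAGAGAA at −153 to −145. Irf1 and Irf8 each had a second annotated start, whose windows held 0 GAS matches. Among all 32851 promoter windows of 300 bases (250 before and 50 after the start), 8.3% held this element. The Irf7 window held neither it nor the ISRE (GAAA, any 2 bases, GAAA; 3.44% of windows), the STAT6-type element (TTC, any 4 bases, GAA; 6.95%) or the ETS-IRF composite (GGAA, any 2 bases, GAAA; 2.72%). Irf2 was the one member whose window held an ISRE, GAAAATGAAA, at −241 to −232. It overlaps an ETS-IRF match, GGAAGTGAAA, at −247 to −238, and a GAS match, TTCCGAGAA, lies at −224 to −216. The STAT6-type element was found in 1 window, that of the first Irf9 start, as TTCCTGGGAA at 1 to 10 after the start. The looser NF-kB-type pattern (GGG, any 5 bases, CC) was found in 50.8% of all windows and separates nothing here. All elements were searched on both strands, all 8 genes had at least 1 of their 11 windows in the table, and a match is only a string of letters.

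Values are log2 expression after RMA, which subtracts background and condenses the probes of a set to 1 value. A difference of 1 is 2-fold, and a gene was called when it differed by at least 1 with at least 1 of the arrays compared at or above 5.82, the median of the whole table without controls. Each gene is represented by its brightest probe set on average, called the main probe set. Probe sets of the same gene disagreed with an SD (log2) of 0.48 in STAT4 loss (deficient minus wild type Th1 cells), 0.65 in STAT6 loss (deficient minus wild type Th2 cells), 0.71 for the wild types (Th1 minus Th2) and 0.85 for the knockouts (STAT4-deficient minus STAT6-deficient). This SD is the only available guide to error, and it does not cover mice or cultures. The median difference over genes at the level minimum was 0.13, −0.30, −0.37 and 0.02 in these comparisons, so the arrays are not on one footing. T cell markers were bright on every array (11 of 11 at the minimum, medians 11.72 to 12.54). The Stat4 probe set read 11.45 in wild type Th1 and 9.20 in STAT4-deficient cells. It also read 8.96 in wild type Th2 and 9.90 in STAT6-deficient cells, so a low Stat4 signal does not by itself check the STAT4-deficient label. The main Stat6 probe set read 10.93 in wild type Th2 and 10.92 in STAT6-deficient cells. The Stat6 signal therefore does not check the label of that array, and where the probes lie relative to the deletion is not known here.

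**Figure D1:**
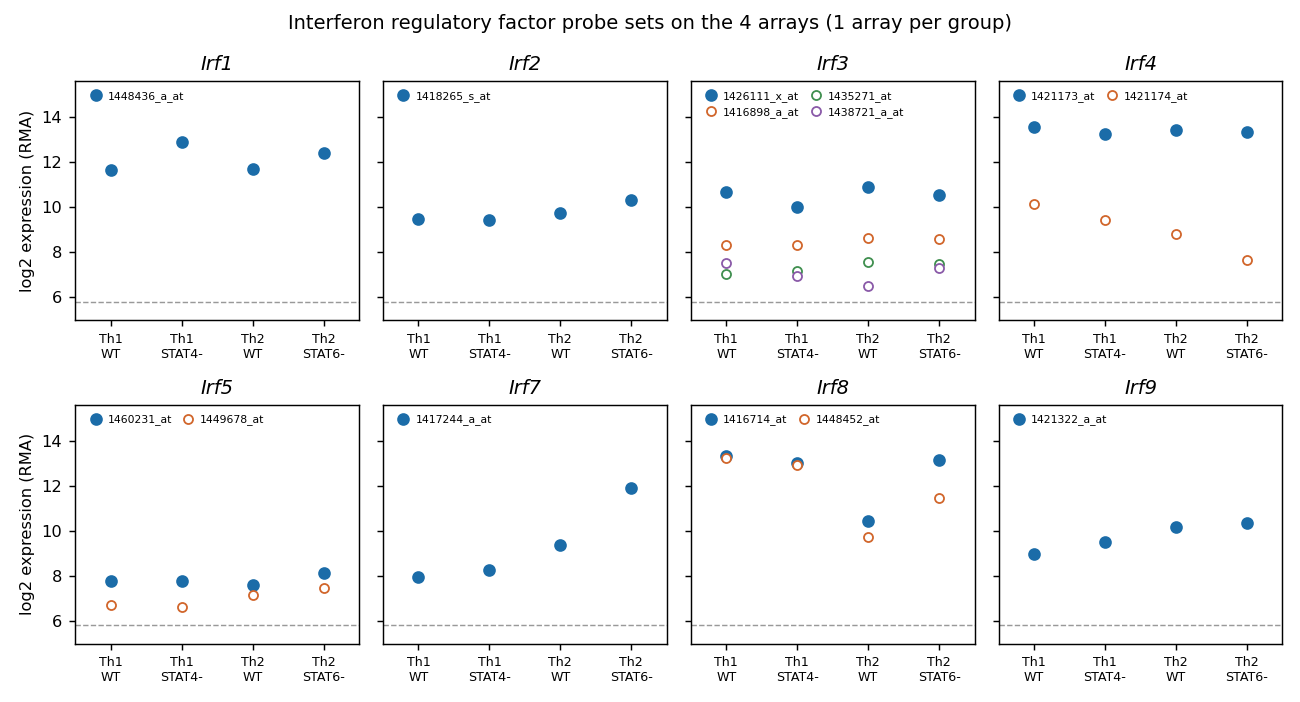
Log2 expression (vertical axis) of all 14 probe sets on the 4 arrays, 1 panel per gene; WT is wild type, STAT4- and STAT6- are the deficient cells, filled points are the main probe set of a gene, open points its others, and the dashed line is the level minimum of 5.82. Both Irf8 probe sets are lowest in the wild type Th2 array and 1 of them is also lower in the STAT6-deficient than in the Th1 arrays, Irf7 is highest in the STAT6-deficient Th2 array, and the 2 Irf4 probe sets follow different courses.

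Most members did not reach 2-fold in any one comparison, and each count has to be read against all genes. In STAT4 loss 1 of 8 members was called, Irf1, and it was higher; 11.5% of all genes were called, 6.18% higher and 5.34% lower. In STAT6 loss 2 of 8 were called, Irf7 and Irf8, both higher, where 26.5% of all genes were called, 7.01% higher and 19.5% lower. For the wild types 3 of 8 were called, Irf8 higher in Th1 cells and Irf7 and Irf9 lower, where 33.5% of all genes were called, 8.14% higher and 25.4% lower. For the knockouts 1 of 8 was called, Irf7, which was lower in the STAT4-deficient cells, where 22.9% of all genes were called, 12.6% higher and 10.3% lower. All 8 members were at the level minimum in each comparison. The number of members called was thus near or below the share of all genes in all 4 comparisons, and is no result about the family. The median member differed by 0.01 in STAT4 loss, 0.56 in STAT6 loss, −0.14 for the wild types and −0.44 for the knockouts.

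**Figure D2:**
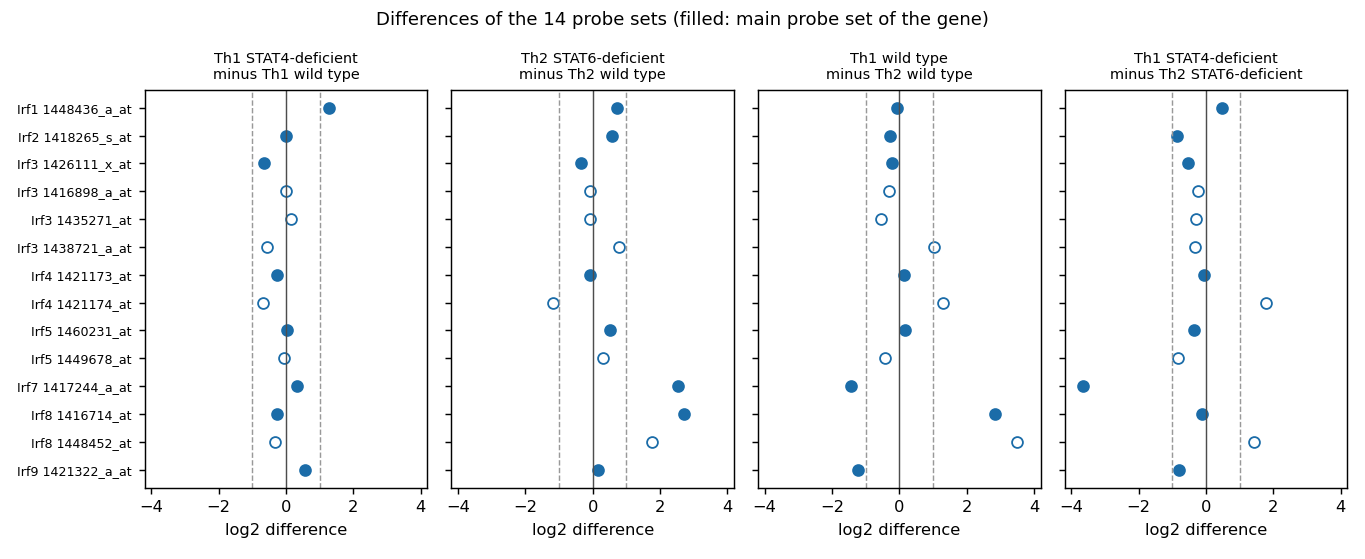
Log2 differences (horizontal axis) of the 14 probe sets (rows) in the 4 comparisons (panels); filled points are the main probe set of a gene, open points its others, and dashed lines mark 2-fold. In STAT6 loss Irf7 (2.53) and both Irf8 probe sets (2.72 and 1.75) lie to the right, whereas in STAT4 loss only Irf1 (1.26) passes the line.

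Irf8 was the member that set wild type Th2 cells apart. Its main probe set read 13.31 in wild type Th1, 13.04 in STAT4-deficient Th1, 10.45 in wild type Th2 and 13.17 in STAT6-deficient Th2 cells, the order of arrays used for every list of 4 values below. The wild type Th2 array lay far below the other three, which did not differ beyond the probe-set disagreement. In these bulk samples fewer cells making a transcript and less of it per cell cannot be told apart. Irf8 was thus 7.24-fold higher in Th1 than in wild type Th2 cells, and 6.57-fold higher in Th2 cells without STAT6 than with it. These comparisons share the wild type Th2 array, so they are not separate evidence. Without STAT4, Irf8 differed from wild type Th1 by −0.27, and the sign turned under quantile normalization, loess and hybridization control centring. In STAT6 loss 0.923% of the 11490 genes at the level minimum were at least as far above wild type, and for the wild types 0.537% of 12111 genes did.

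The other Irf8 probe set (1448452_at, the main one being 1416714_at) gave 13.22, 12.91, 9.73 and 11.48 on the 4 arrays. Both probe sets placed wild type Th2 lowest, but they parted on the STAT6-deficient array. On the main probe set that array reached the Th1 level (−0.14 against wild type Th1), whereas on the other it stayed lower by 1.74 log2 units. STAT6 loss was accordingly 2.72 on one and 1.75 on the other, and the difference for the knockouts was −0.13 on one and 1.43 on the other. How fully Irf8 in STAT6-deficient Th2 cells matched Th1 cells therefore depends on the probe set.

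Irf8 is abundant in myeloid, dendritic and B cells, so markers of those cells were read on the same arrays. Of 10 myeloid markers 4, 3, 3 and 4 reached the level minimum on the 4 arrays, with medians from 5.13 to 5.54. Of 9 dendritic cell markers 5, 5, 5 and 3 reached it, and their summed level (log2 of the sum of linear values) was highest in wild type Th2 (10.99), the array where Irf8 was lowest. Batf3, also made by activated T cells, carried most of that sum at 10.59. The dendritic cell markers Zbtb46 (6.35, 6.55, 5.99 and 6.22) and Tcf4 (6.80, 6.96, 6.39 and 6.60) were lowest in wild type Th2 cells, as Irf8 was. Itgax (6.76) and Flt3 (6.55) were highest there. Of 9 B cell markers 3, 5, 4 and 2 reached the minimum, with summed levels of 9.64, 10.71, 10.29 and 10.37. Ighm was the brightest at 8.76 to 10.30, and Ms4a1, Ebf1 and Cr2 stayed below the minimum on every array. These sums rest on a few genes, and single markers went different ways. In wild type Th2 cells the myeloid sum was highest through Adgre1 (8.26, against 5.92 or less on the other arrays), whereas the myeloid median (5.23, 5.49, 5.13 and 5.54) was lowest there. Lyz2 (6.28, 6.45, 4.88 and 5.27), Mpeg1 (5.38, 5.57, 4.66 and 8.12) and the B cell marker Cd79a (5.69, 5.99, 4.29 and 5.45) were also lowest in wild type Th2 cells, as Irf8 was. Each of them read below the level minimum there. The B cell markers Cd22 (5.48) and Ebf1 (4.43) were likewise lowest and below the minimum there. By contrast, the B cell markers Cd79b (5.94), Pax5 (6.22) and Blk (5.99) were highest in wild type Th2 cells. Of 7 CD8 and NK cell markers 5, 4, 5 and 3 reached the minimum, and their summed levels of 10.36, 10.38, 9.70 and 11.71 were lowest on the same array. Their median (6.62, 5.96, 6.67 and 5.80) was highest there. Cd160 (9.17, 9.69, 7.09 and 11.48) and Eomes (6.96 in wild type Th2) were lowest on that array, whereas Cd8b1 (8.54) and Fcgr3 (6.67) were highest on it. Of 6 neutrophil markers 3, 2, 1 and 1 reached the level minimum, and their summed levels of 8.26, 8.27, 7.68 and 7.72 were low on both Th2 arrays. The part of any of these 5 cell types in the Irf8 values was not tested. The 3 genes with the profile most like Irf8, by root mean square difference of centred log2 values over the 4 arrays among 13147 genes, were Marcksl1 (0.096), Gramd3 (0.10) and Grasp (0.13). Marcksl1, for example, read 12.57, 12.15, 9.69 and 12.20. With 4 arrays many genes can share such a shape.

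Irf7 was highest in STAT6-deficient Th2 cells. It read 7.95, 8.27, 9.39 and 11.92 on its 1 probe set (1417244_a_at). Both Th1 arrays lay below both Th2 arrays, and the 2 Th1 values differed by less than the probe-set disagreement. It was 5.76-fold higher in STAT6 loss, and 1.17% of genes were at least as far above wild type. The difference for the knockouts, −3.64 or 12.5-fold, was the largest of any member in any comparison, and 0.270% of 12582 genes were as far below. For the wild types Irf7 was 2.72-fold lower in Th1 cells, but this fell under 2-fold after quantile normalization and loess. The STAT6-deficient array also had the largest 3′ excess of the actin control (2.08, below), whose part in these values was not tested.

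Genes with the profile nearest to that of Irf7 were Slfn8 (0.19), Herc6 (0.24) and Oas3 (0.27), known as interferon-stimulated genes. Slfn8 read 8.25, 8.32, 9.17 and 11.86, and Herc6 read 6.30, 6.03, 7.43 and 10.25. Ifnb1, the interferon beta gene that IRF3 and IRF7 can activate, read 5.77, 5.41, 5.05 and 8.89; it was chosen after its values were seen. Only the STAT6-deficient array stood above the level minimum for Ifnb1.

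Irf1 was the one member called in STAT4 loss. It read 11.64, 12.90, 11.70 and 12.42 on its probe set (1448436_a_at). Both deficient arrays lay above both wild type arrays, and the wild types differed by only −0.07. The difference was 1.26 (2.40-fold) for STAT4 loss and 0.72 (1.64-fold) for STAT6 loss, the second short of 2-fold. In STAT4 loss 2.92% of 12608 genes were as far above wild type, and in STAT6 loss 10.8% did. Ifng, whose product induces Irf1, read 14.67, 10.54, 8.18 and 10.20, and was brightest on a different array from Irf1. The Th2 cultures held an antibody to interferon gamma, and its part in the Irf1 values was not tested. The genes nearest to the Irf1 profile were Zmiz2 (0.043), Dsc3 (0.063) and Trpm1 (0.075), of which Dsc3 and Trpm1 barely reached the level minimum.

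Irf9 (1421322_a_at) read 8.96, 9.53, 10.19 and 10.34. The Th2 arrays were the higher ones, and neither loss moved it by more than 0.57. For the wild types it was 2.34-fold lower in Th1 cells, which fell under 2-fold after quantile normalization and loess. The profile nearest to it was that of Tyk2 (0.038), the kinase of the type I interferon receptor, at 8.47, 9.05, 9.71 and 9.94, followed by Trim16 (0.038) and Nthl1 (0.040). Irf2, with 1 probe set (1418265_s_at), read 9.47, 9.46, 9.74 and 10.32. It differed by −0.01 in STAT4 loss and 0.58 in STAT6 loss, neither past 2-fold.

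Irf4 gave different pictures on its 2 probe sets. The brighter, 1421173_at, read 13.54, 13.26, 13.41 and 13.33, a span of 0.28 that 98.0% of genes equalled or exceeded. The dimmer, 1421174_at, read 10.13, 9.44, 8.83 and 7.66, 2.25-fold lower in STAT6 loss and 3.44-fold higher in the STAT4-deficient than in the STAT6-deficient array. By the main probe set no comparison was called for Irf4, and by the other 3 of 4 were, although its STAT6 loss difference of −1.17 came under 2-fold after quantile normalization (−0.83) and loess (−0.88), and its wild type difference of 1.29 did with hybridization control centring (0.91).

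The gap between the Irf4 probe sets had the same order of arrays as an RNA quality control. It was 3.42, 3.82, 4.58 and 5.67 on the 4 arrays. The beta-actin control, in which a larger excess of 3′ over 5′ signal accompanies shortened or incompletely copied RNA, rose over the same arrays from 0.32 to 0.66, 0.85 and 2.08. The gap between the Irf8 probe sets had the same order, at 0.09, 0.13, 0.73 and 1.69. The Gapdh control, at −0.16, 0.17, 0.00 and 0.77, was lowest and highest on the same arrays but ordered the other two differently. Where each probe set lies along its transcript is not given in the sources used here, and the part of RNA quality in these gaps was not tested.

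**Figure D3:**
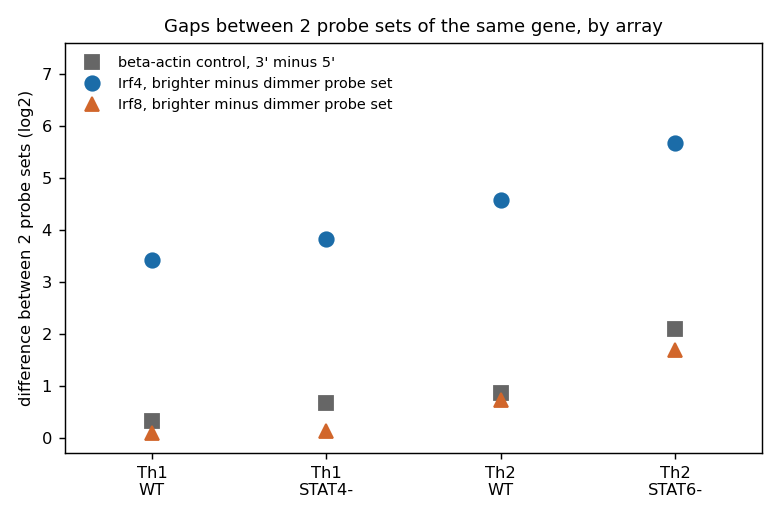
Difference in log2 signal between 2 probe sets of the same gene (vertical axis) on each array (WT, wild type; STAT4- and STAT6-, deficient cells), for the beta-actin control (3′ minus 5′, squares), Irf4 (circles) and Irf8 (triangles). All 3 gaps are smallest in wild type Th1 and largest in STAT6-deficient Th2 cells, where they are 2.08, 5.67 and 1.69.

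Irf3 and Irf5 changed little. The main Irf3 probe set, 1426111_x_at, read 10.68, 10.02, 10.90 and 10.56, and its differences ran from −0.66 to −0.22. Of the other 3 Irf3 probe sets 1, 1438721_a_at, was called for the wild types, at 7.52 against 6.50 (1.02), and came under 2-fold with hybridization control centring (0.64). The other Irf3 probe sets were negative for the wild types, but after quantile normalization and loess 1426111_x_at (0.13 and 0.17) and 1416898_a_at (0.28 in both) were positive. The main Irf5 probe set read 7.78, 7.80, 7.62 and 8.15, and the other read 6.72, 6.65, 7.16 and 7.47. For both genes every main difference stayed under 2-fold under all 5 scalings. The other Irf5 probe set, 1449678_at, differed by −0.82 for the knockouts as deposited and passed 2-fold with median centring (−1.20).

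Upstream of the family, 15 interferon receptor signalling genes were analysed. The counts of this and the following lists stand beside 6.18% of all genes higher and 5.34% lower in STAT4 loss (median 0.13), and 7.01% higher and 19.5% lower in STAT6 loss (median −0.30), and are descriptions. In STAT4 loss 1 was higher and 2 lower (median −0.18), and in STAT6 loss 1 was higher and 5 lower (median −0.38, close to that of all genes). Ifngr2, the signalling chain of the interferon gamma receptor, read 6.12, 8.09, 8.93 and 6.18, with differences of 1.97 in STAT4 loss and −2.74 in STAT6 loss. Its partner Ifngr1 read 11.07, 10.62, 9.73 and 9.35, higher in both Th1 arrays. Stat2, which pairs with Irf9, read 7.26, 7.50, 8.21 and 8.82, and the type I receptor genes Ifnar1 and Ifnar2 differed by less than 2-fold in every comparison. Socs3, a feedback inhibitor, was lower in both losses (−2.75 and −2.61), while in STAT6 loss Socs1 was lower (−2.12) and Usp18, a brake on type I interferon signalling, higher (3.24).

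Of the sensors and kinases that activate Irf3, Irf5 and Irf7, 18 of 20 were measured and 16 reached the minimum in either loss. In STAT6 loss 7 were higher and 2 lower (median 0.10), led by Dhx58 (3.25), Ifih1 (2.94), Tlr7 (2.30) and Zbp1 (2.16); Dhx58 and Ifih1 encode RNA sensors of the RIG-I family, which are themselves interferon-stimulated. In STAT4 loss 2 were higher and 1 lower (median 0.03). Tlr7, an endosomal RNA sensor, and Ikbke, a kinase that phosphorylates Irf3 and Irf7, were the higher ones, by 2.08 and 1.56, and both were also higher in STAT6 loss. Tbk1, the related kinase, differed by −1.01 in STAT4 loss. Tlr7 read 5.41, 7.50, 5.24 and 7.54, so that both deficient arrays stood above both wild types, as they did for Irf1.

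Partners of Irf4 and Irf8 were called in both directions. Of 15 at the minimum (16 measured) 4 were lower and none higher in STAT4 loss, and 5 were lower and 2 higher in STAT6 loss (medians −0.33 and −0.31, the second close to the −0.30 of all genes). Batf3 was lower in both (−3.04 and −1.89). Batf, the AP-1 family factor that binds DNA together with Irf4, read 11.18, 10.80, 12.79 and 10.09, highest in wild type Th2. Jun (−1.83) and Junb (−1.15) were lower in STAT4 loss, and Ikzf3 (−2.99), Batf (−2.70) and Nfatc2 (−2.08) in STAT6 loss. Bcl6 was lower in STAT4 loss (−1.14) and higher in STAT6 loss (1.70). Of 10 measured genes (12 listed) whose proteins bind or modify the factors, 1 was higher and none lower in STAT4 loss, and 1 was higher and 1 lower in STAT6 loss. Trim21, a ubiquitin ligase for several of them, read 7.95, 9.87, 10.05 and 11.65, higher by 1.93 and 1.60 in the 2 losses, and Def6 differed by −2.12 in STAT6 loss.

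Genes known as targets of the factors were read as lists, which give no direction of control. Of 20 ISGF3 and IRF7 targets at the minimum all were higher in STAT6 loss (median 3.66, against −0.30 over all genes), the smallest difference being Eif2ak2 at 1.01. In STAT4 loss 2 of 19 were higher, Rtp4 (2.50) and Rsad2 (1.17), and none lower (median 0.37). The IRF1 targets differed between the 2 losses, and their relation to the Irf1 level was not tested. In STAT4 loss, where Irf1 was higher, none of 18 was higher and 3 were lower, the guanylate-binding protein genes Gbp2 (−1.50) and Gbp3 (−1.35) and Il12rb1 (−1.12). In STAT6 loss, where Irf1 was also higher but short of 2-fold (0.72), 6 of 17 were higher and 2 lower (median 0.18). Gbp3 was at 3.34 and Gbp2 at 3.13. Of the IRF4 targets known in T cells 8 of 14 were lower and 3 higher in STAT4 loss, and 7 of 13 were lower and 2 higher in STAT6 loss (medians −1.28 and −1.26), while Irf4 differed by −0.28 and −0.08 on its main probe set and by −0.68 and −1.17 on the other. Il21, Il10 and Ctla4 were among the lower ones in both, and Il21 differed by −7.63 and −5.88, Il10 by −6.80 and −7.26. Il4, at 3.01, had the largest difference of the higher ones in STAT4 loss. Prdm1 (−5.48) and Maf (−5.16) followed Il10 and Il21 among the lower ones in STAT6 loss. These lists hold genes that other factors also control, including targets of STAT4 and STAT6 themselves. They were chosen with earlier results of these data known, so their counts are descriptions only.

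**Figure D4:**
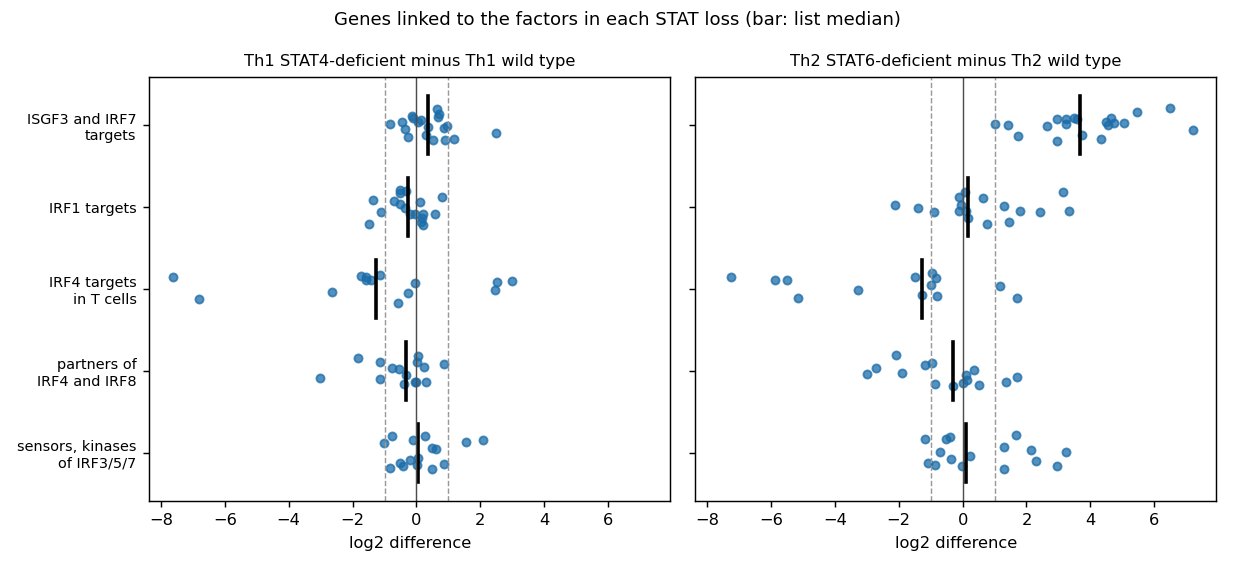
Log2 differences (horizontal axis) of the measured genes at the level minimum in 5 lists (rows), chosen with earlier results of these data known, for STAT4 loss and STAT6 loss (panels); each point is a gene, spread vertically only for legibility, and the black bar is the list median. The ISGF3 and IRF7 targets lie to the right in STAT6 loss (median 3.66) and near 0 in STAT4 loss (median 0.37).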

How the data were processed

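Total RNA of 4 cultures was hybridised to Affymetrix mouse genome expression arrays. The deposited values are log2 expression, which the authors computed with RMA, per the submitters' processing notes; version, build and joint or separate normalization are not given in the sources used here. They are coarse: each array held between 3338 and 4007 distinct values over 45101 probe sets. The wild type arrays had 1471 of these values in common, and no other pair had more than 5. The cause was not tested.

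Groups came from the sample titles. Of 45037 non-control probe sets 34945 had 1 annotated gene, 932 several and 9160 none; only the first were used, with symbols updated through RefSeq (GRCm38.p6). Differences and calls were computed in Python 3.11.15 with pandas 2.3.3, and loess and quantile scaling in limma 3.58.1. No replicates exist, so no p-value was computed. The members and lists were chosen with earlier results of these data known. Within each of 7 pathway lists up to 4 called genes were to be named, with all members, interferon receptors, Ifng and Stat2; the 3 nearest profiles were added for members spanning at least 1 log2 unit. Trim21 and Batf values by array, Ifnb1 and Tlr7 go beyond that rule. The planned protein comparison was not run.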

Additional observations from a re-analysis of the deposited data

How the results depend on the processing

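No paired analysis was possible because each group is 1 array, and for the same reason no replicate could be left out. The 2 members called in STAT6 loss, Irf7 and Irf8, were called under all 4 other scalings, and Irf8 also with the median over its probe sets. Irf7 has 1 probe set, so that median could not change its call. Both genes read far above each level minimum (11.92 and 13.17 in STAT6-deficient cells), so those settings could not change the calls either. A 1.5-fold limit added Irf1 (3 called). In STAT4 loss the count of 1 became 2 with a 1.5-fold limit (Irf3 added) and 0 with a 3-fold limit. Between the wild types the count of 3 became 1 (Irf8) after quantile normalization, 1 after cyclic loess and 1 with a 3-fold limit. Between the knockouts the count of 1 became 3 with median centring and 3 with a 1.5-fold limit, Irf2 and Irf9 joining Irf7. Over all genes the share of calls that were higher depended on scaling: 53.7% in STAT4 loss became 24.8% with median centring, 41.4% after loess and 87.5% with hybridization controls, and 26.5% in STAT6 loss became 43.4% after quantile normalization and 42.5% after loess. For the wild types 24.3% became 44.9%, 41.0% and 8.89% with quantile, loess and hybridization control scaling, and for the knockouts 55.1% became 18.8% with median centring and 68.4% with hybridization controls. Of 160 recomputed member differences 158 moved by less than the probe-set SD. The other 2 came from the median over probe sets, for Irf3 in STAT4 loss (−0.17) and Irf4 between the knockouts (0.86). No called difference changed sign. Irf1, Irf2, Irf7 and Irf9 have 1 probe set each, so the median over probe sets could not move their differences. A shift smaller than the SD can also end a call. After quantile normalization this happened between the wild types for Irf7 (−1.44 to −0.85) and Irf9 (−1.22 to −0.72).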
